A study of Mus musculus with 21 samples.

Results

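The 6 autosomal H3K9me2 domain lists of mouse fibro-adipogenic progenitors (FAPs) were compared, 3 from Prdm16 FAPs and 3 from WT FAPs. They hold 5818 autosomal domains, of 8221 domains of both chromatin marks in a series of 21 samples. All domains of the 6 libraries on the 19 autosomes were taken, with no cut on length or score. Prdm16 FAPs came from adult Prdm16Flox/Flox::Pdgfr<alpha>Cre-ERT/+ mice, in which a tamoxifen-inducible Cre driven by Pdgfra can delete the floxed Prdm16 alleles in Pdgfra-expressing cells. WT FAPs came from adult Prdm16Flox/Flox::Pdgfr<alpha>+/+ mice, which carry the same floxed alleles and no Cre, so Cre activity and the loss of Prdm16 cannot be told apart. All mice had 5 daily tamoxifen injections and, 7 days later, a cardiotoxin injury of the muscle; FAPs were sorted 5 days after injury, grown for 4 to 5 days and fixed with 1% formaldehyde, and chromatin was precipitated with an H3K9me2 antibody. Nothing in the labels ties replicates to separate animals, so every p-value measures the spread between these libraries, which may be technical.

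H3K9me2 is a histone mark laid down mainly by the methyltransferases G9a (Ehmt2) and GLP (Ehmt1), and it covers long stretches of gene-poor, silent chromatin, much of it at the nuclear lamina. FAPs, a mesenchymal population of skeletal muscle, support regeneration and can turn into fat or fibrous tissue. Prdm16 is a zinc-finger transcription regulator known for its part in brown fat identity, and proteins of its family include H3K9 methyltransferases. The domain lists address whether the layout of H3K9me2 differs when Prdm16 is targeted.

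Of 20665 autosomal protein-coding genes in RefSeq (GRCm38.p6), 7 (0.0339%) lay inside domains in all 3 Prdm16 libraries and in no WT library, and 31 (0.15%) in all 3 WT libraries and in no Prdm16 library; a gene counted as inside when at least 0.5 of its body was covered. The promoters of 3 of these genes are printed here as examples and do not stand for the others. Each sequence is 300 bases long, from 250 bases before to 50 bases after an annotated start. It is read 5′ to 3′ on the gene's strand from RefSeq, with CpG dinucleotides in capitals. In all 3 genes the start used lies inside the annotated gene body, not at its outer end. Lrmda, a gene tied to melanocyte differentiation, is the longest of the 7 and its promoter lies at chr14:22019462-22019761 on the plus strand. Dcdc5, a doublecortin-domain gene, is the longest of the 31 and its promoter lies at chr2:106080749-106081048 on the plus strand. Muc16, a membrane mucin of epithelia, is the longest of the 31 whose promoter was covered in all 3 WT libraries and in no Prdm16 library, and that promoter lies at chr9:18674554-18674853 on the minus strand. It was picked after the values were seen.
Lrmda: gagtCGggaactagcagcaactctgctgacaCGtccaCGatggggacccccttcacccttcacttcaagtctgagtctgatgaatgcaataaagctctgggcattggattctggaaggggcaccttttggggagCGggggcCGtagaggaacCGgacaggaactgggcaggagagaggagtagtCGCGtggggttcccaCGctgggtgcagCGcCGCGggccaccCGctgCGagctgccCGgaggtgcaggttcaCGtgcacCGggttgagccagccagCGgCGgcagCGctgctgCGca
Dcdc5: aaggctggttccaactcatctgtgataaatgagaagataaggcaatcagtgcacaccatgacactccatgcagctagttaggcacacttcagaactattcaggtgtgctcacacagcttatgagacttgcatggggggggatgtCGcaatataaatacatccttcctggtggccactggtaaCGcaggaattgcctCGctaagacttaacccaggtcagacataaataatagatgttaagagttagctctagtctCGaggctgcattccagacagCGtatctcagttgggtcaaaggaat
Muc16: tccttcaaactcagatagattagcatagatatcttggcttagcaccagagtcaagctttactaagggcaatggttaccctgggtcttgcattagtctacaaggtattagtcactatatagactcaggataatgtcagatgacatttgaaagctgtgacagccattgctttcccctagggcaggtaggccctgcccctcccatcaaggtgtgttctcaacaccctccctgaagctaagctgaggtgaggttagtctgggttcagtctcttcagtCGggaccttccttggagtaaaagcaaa
The Lrmda promoter has 21 CpG and was covered in no library, although 72.3%, 51.7% and 90.1% of the gene body was covered in Prdm16 replicates 1, 2 and 3. The Dcdc5 promoter has 5 CpG and was covered in WT replicates 1 and 3 only. The Muc16 promoter has 1 CpG. Across the 16457 genes with a promoter in the RefSeq table, the median number of CpG was 14. It was 16 for the 13951 genes inside domains in no library and 3 for the 506 genes inside in all 6. For the 561 genes inside in 1 library it was 2, and it was 3 or 4 for those inside in 2 to 5.

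A pair of libraries, 1 of each genotype, stood apart from the other 4. Prdm16 replicate 1 and WT replicate 2 had the least covered length, the fewest domains of at least 1 Mb and the lowest median scores, so the largest differences among the 6 libraries ran across the genotypes. Domains covered 500 Mb, 800 Mb and 677 Mb of the autosomes in Prdm16 replicates 1, 2 and 3, and 883 Mb, 562 Mb and 776 Mb in WT replicates 1, 2 and 3. Read depth of these libraries is unknown and the part it plays was not tested. The summary measures, the windows and the counts of separated genes were therefore also computed without this pair, a choice made after seeing the data.

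Autosomal coverage did not differ between the genotypes beyond the spread of their replicates. Domains covered 20.3%, 32.5% and 27.5% of the autosomal length in Prdm16 replicates 1, 2 and 3, and 35.9%, 22.8% and 31.5% in WT replicates 1, 2 and 3. The groups overlapped, with 26.8 ± 6.13% in Prdm16 and 30.1 ± 6.64% in WT (SD, n = 3 each), a difference of -3.30 percentage points (exact two-sided permutation test, p = 0.6). With 3 against 3 libraries the smallest p this test allows is 0.1, so no single measure could reach 0.05. Without Prdm16 replicate 1 the difference was -0.06 points, without WT replicate 2 it was -6.92 points, and without both it was -3.69 points.

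The genotypes overlapped chromosome by chromosome. Mean coverage was lower in Prdm16 than in WT on 18 of the 19 autosomes, but on 0 (0.0%) did the 3 Prdm16 values lie clear of the 3 WT values. The smallest exact permutation p was 0.3, and 0.89 after Benjamini-Hochberg adjustment over the 19 autosomes. Prdm16 replicate 1 had the lowest coverage on 17 autosomes and WT replicate 1 the highest on 17.

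**Figure D1:**
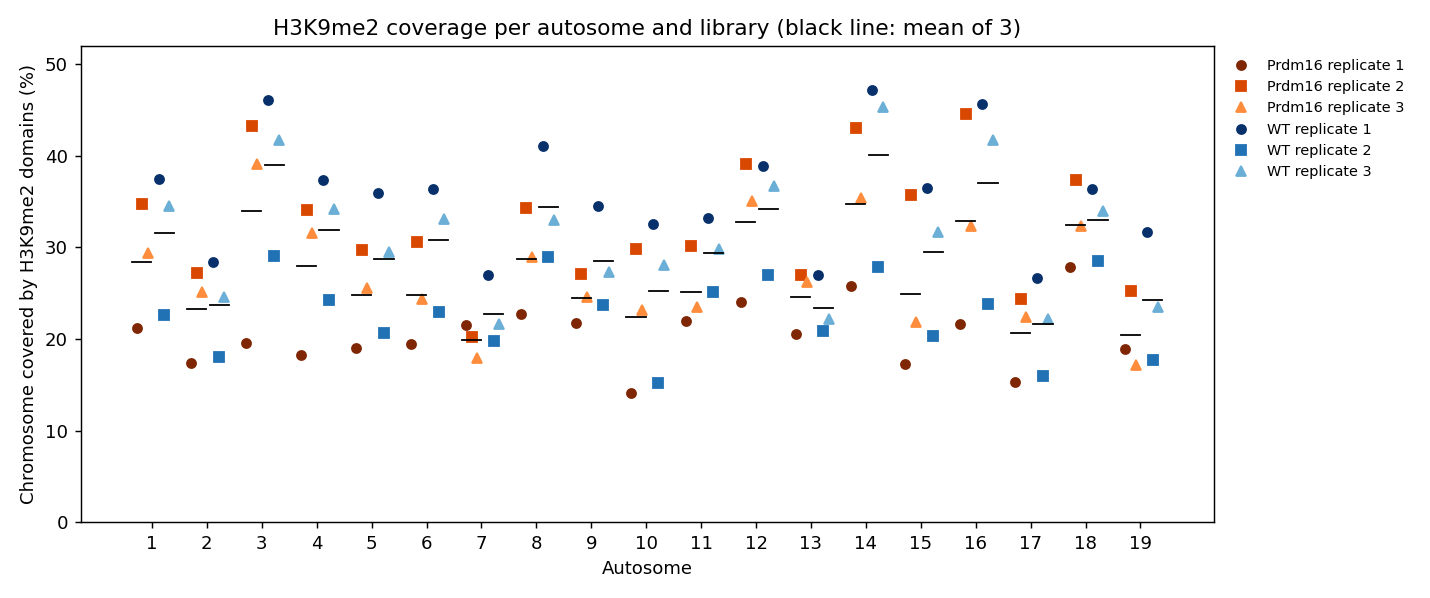
Percentage of each autosome covered by H3K9me2 domains (y axis), with Prdm16 libraries (orange) left of WT libraries (blue) and black lines for the mean of 3. Prdm16 replicate 1 and WT replicate 2 both lie under the other 4 libraries on 15 autosomes, and the genotypes overlap on every autosome.

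The widest gaps in mean were on chromosomes 6, 8 and 14. Chromosome 6 was covered to 19.5%, 30.6% and 24.4% in Prdm16 replicates 1, 2 and 3, and to 36.4%, 23.0% and 33.1% in WT replicates 1, 2 and 3. Chromosome 8 was covered to 22.8%, 34.4% and 29.0% in the Prdm16 libraries, and to 41.1%, 29.0% and 33.0% in the WT libraries. On both, WT replicate 2 lay inside the Prdm16 range. Chromosome 13 was the only autosome with the higher mean in Prdm16, at 24.6 ± 3.54% in Prdm16 and 23.4 ± 3.22% in WT (SD, n = 3 each). On chromosome 3, Prdm16 replicate 1 had 19.6%, less than the 39.1% to 43.2% of the other Prdm16 libraries and the 29.1% to 46.1% of the WT libraries. On chromosome 7, the same library had 21.5%, above the 17.9% and 20.3% of the other Prdm16 libraries and inside the WT range of 19.7% to 27.0%.

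Along the chromosomes, coverage was compared in 5 equal parts counted from the annotated start. In every library it was highest in part 2, at 23.8%, 40.1% and 33.7% in Prdm16 replicates 1, 2 and 3, and 42.3%, 28.4% and 38.9% in WT replicates 1, 2 and 3. Part 5 had 20.7% on average in Prdm16 and 21.4% in WT. The genotypes overlapped in each part, with exact permutation p from 0.4 to 1.

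The libraries agreed on a common core and differed around it. Domains of at least 1 library spanned 1076 Mb, of which 290.9 Mb (27.0%) was covered in all 6 libraries. Only 6.31 Mb (0.59% of the union) was covered in 3 Prdm16 libraries and no WT library, and 3.85 Mb (0.36%) in 3 WT libraries and no Prdm16 library. A further 144 Mb was covered in a single library. Prdm16 replicate 1 alone was missing from 87.8 Mb that the other 5 libraries shared, against 14.4 Mb and 28.5 Mb for Prdm16 replicates 2 and 3, and 3 Mb, 13.7 Mb and 26.1 Mb for WT replicates 1, 2 and 3.

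Pairs of libraries were compared by the length both covered as a share of the length either covered. This share was 66.0% for Prdm16 replicate 1 with WT replicate 2, the highest value of either library with any other. It was 46.2% and 48.0% for Prdm16 replicate 1 with Prdm16 replicates 2 and 3, and 56.7% and 53.2% for WT replicate 2 with WT replicates 1 and 3. Prdm16 replicate 2 shared 71.7% with WT replicate 1, more than the 67.9% it shared with Prdm16 replicate 3. The highest value was 78.4%, for WT replicates 1 and 3. On average the share was 54.1% within Prdm16, 62.8% within WT and 58.5% between the genotypes. With each library cut to the same covered length from its highest scores down, Prdm16 replicate 1 with WT replicate 2 still had 64.1%, against 29.6% and 41.2% with Prdm16 replicates 2 and 3.

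**Figure D2:**
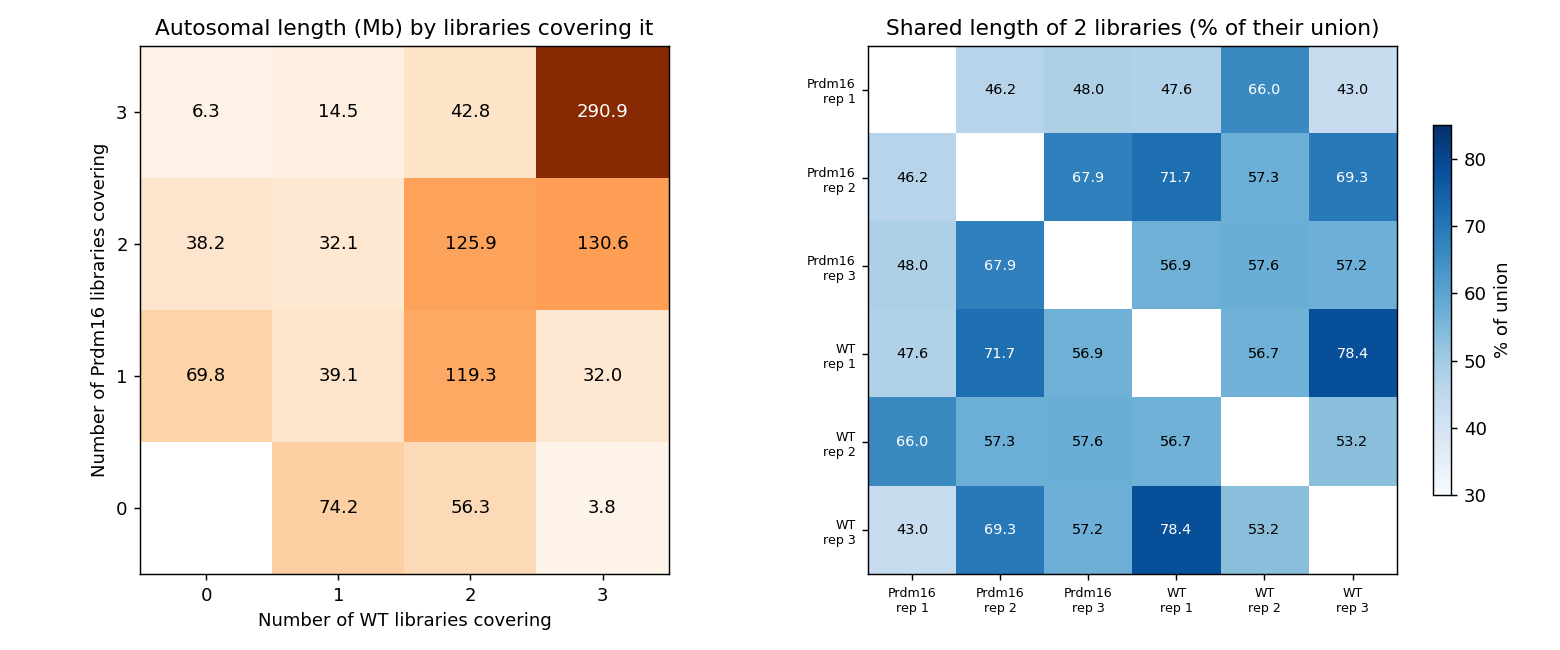
Left, autosomal length in Mb by the number of Prdm16 libraries (y axis) and WT libraries (x axis) that cover it; right, length shared by each pair of libraries as a percentage of their union. The largest cell is that of all 6 libraries (290.9 Mb, 27.0% of the union), and Prdm16 replicate 1 is closest to WT replicate 2 (66.0%).

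Domain numbers and lengths overlapped between the genotypes. There were 1031, 934 and 894 domains in Prdm16 replicates 1, 2 and 3, and 1107, 1022 and 830 in WT replicates 1, 2 and 3 (exact two-sided permutation test, p = 0.8). The median domain was 315 kb, 453 kb and 474 kb long in the Prdm16 libraries, and 378 kb, 354 kb and 459 kb in the WT libraries (exact permutation p = 0.9). The lowest and the highest medians were thus both from Prdm16. The sign of the difference in number, -33.3 domains, turned to 27.0 without WT replicate 1. That in median length, 17.0 kb, turned to -2.50 kb without Prdm16 replicate 2, -13.0 kb without Prdm16 replicate 3 and -4.50 kb without WT replicate 2, and was 45.0 kb without the pair.

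The libraries differed most in their long domains. No domain was under 30 kb in any library, and the shortest was 72 to 90 kb. Domains of at least 1 Mb numbered 108, 213 and 192 in Prdm16 replicates 1, 2 and 3, and 226, 128 and 208 in WT replicates 1, 2 and 3. They held 173 Mb, 506 Mb and 376 Mb in the Prdm16 libraries, and 561 Mb, 224 Mb and 521 Mb in the WT libraries. The 300 kb to 1 Mb class varied less, with 431, 433 and 435 domains in the Prdm16 libraries and 441, 470 and 358 in the WT libraries. Domains of 100 to 300 kb numbered 474, 284 and 263 in the Prdm16 libraries, and 415, 408 and 261 in the WT libraries. The shortest class, 30 to 100 kb, held 18, 4 and 4 domains in the Prdm16 libraries, and 25, 16 and 3 in the WT libraries.

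**Figure D3:**
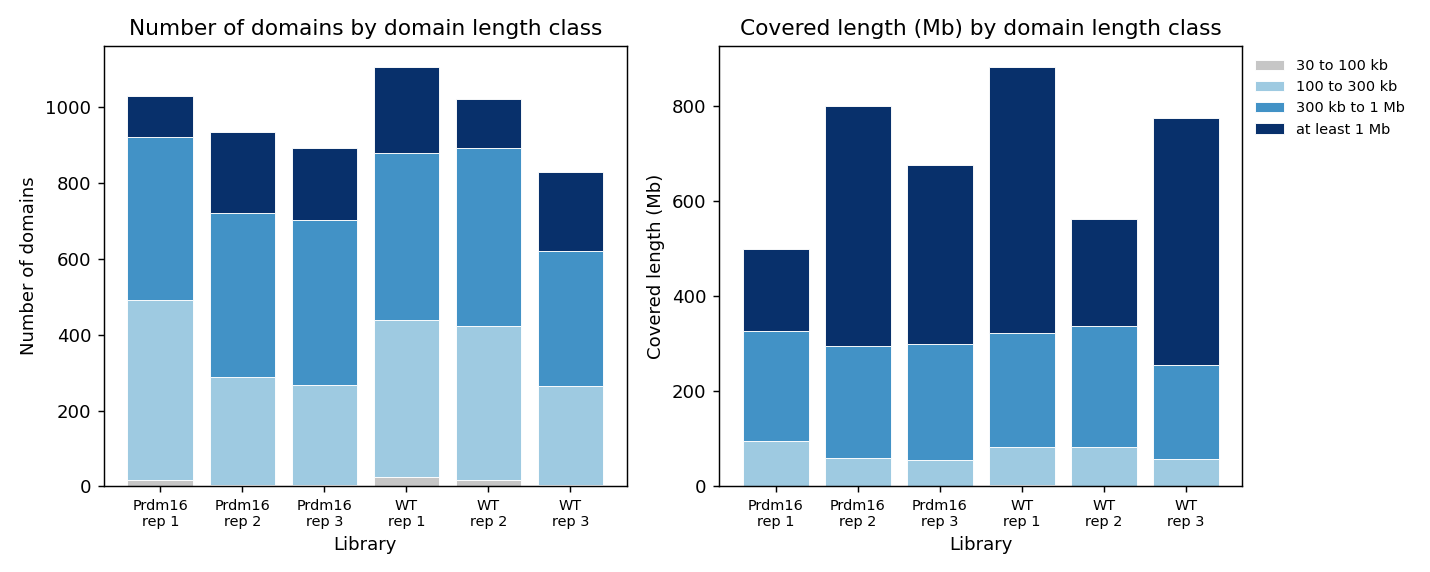
Number of autosomal domains (left) and covered length in Mb (right) in each library, stacked by domain length class. The class of at least 1 Mb holds 173 Mb in Prdm16 replicate 1 and 224 Mb in WT replicate 2, against 376 Mb to 561 Mb in the other 4 libraries.

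As a share of coverage, domains of at least 1 Mb held 34.6%, 63.2% and 55.6% in Prdm16 replicates 1, 2 and 3, and 63.6%, 39.9% and 67.2% in WT replicates 1, 2 and 3. The means were 51.1 ± 14.8% in Prdm16 and 56.9 ± 14.8% in WT (SD, n = 3 each; exact permutation p = 0.5). The difference of -5.75 points turned to 2.53 points without Prdm16 replicate 1 and was -14.2 points without WT replicate 2 and -5.97 points without both. The length at which the covered length is split evenly between longer and shorter domains (N50) was 702 kb, 1527 kb and 1164 kb in the Prdm16 libraries, and 1650 kb, 798 kb and 1863 kb in the WT libraries (exact permutation p = 0.5). Without Prdm16 replicate 1 and WT replicate 2, N50 averaged 1346 kb in Prdm16 and 1757 kb in WT, with both Prdm16 values under both WT values; 2 against 2 libraries cannot give a p below 0.33. All 8 summary measures had a Benjamini-Hochberg adjusted p of 1 over the 8 exact tests.

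Each deposited domain carries a score of the authors, and how it was made is not known here. The median score was 17.4, 23.0 and 21.0 in Prdm16 replicates 1, 2 and 3, and 24.4, 17.4 and 21.7 in WT replicates 1, 2 and 3 (exact permutation p = 0.8). Scores differed mainly in the upper tail, where the upper quartile was 31.9, 42.7 and 36.5 in the Prdm16 libraries, and 51.1, 30.3 and 42.6 in the WT libraries. The lowest score was 9.47 to 10.99 in the Prdm16 libraries and 9.65 to 10.6 in the WT libraries. The difference of the medians, -0.71, turned to 0.81 without Prdm16 replicate 1 and to 0.88 without WT replicate 1.

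The score grew with length, with Spearman's rho from 0.81 to 0.88 across the domains of each library; domains share a library and are not replicates. Domains of 100 to 300 kb had median scores of 12.9, 13.9 and 13.2 in Prdm16 replicates 1, 2 and 3, and 14.96, 13.0 and 13.8 in WT replicates 1, 2 and 3. Domains of at least 1 Mb had 67.8, 76.4 and 55.9 in the Prdm16 libraries, and 96.3, 59.4 and 67.6 in the WT libraries. In that class Prdm16 replicate 3 was the lowest and WT replicate 1 the highest. The genotypes overlapped in every class, with exact permutation p from 0.5 to 0.9.

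**Figure D4:**
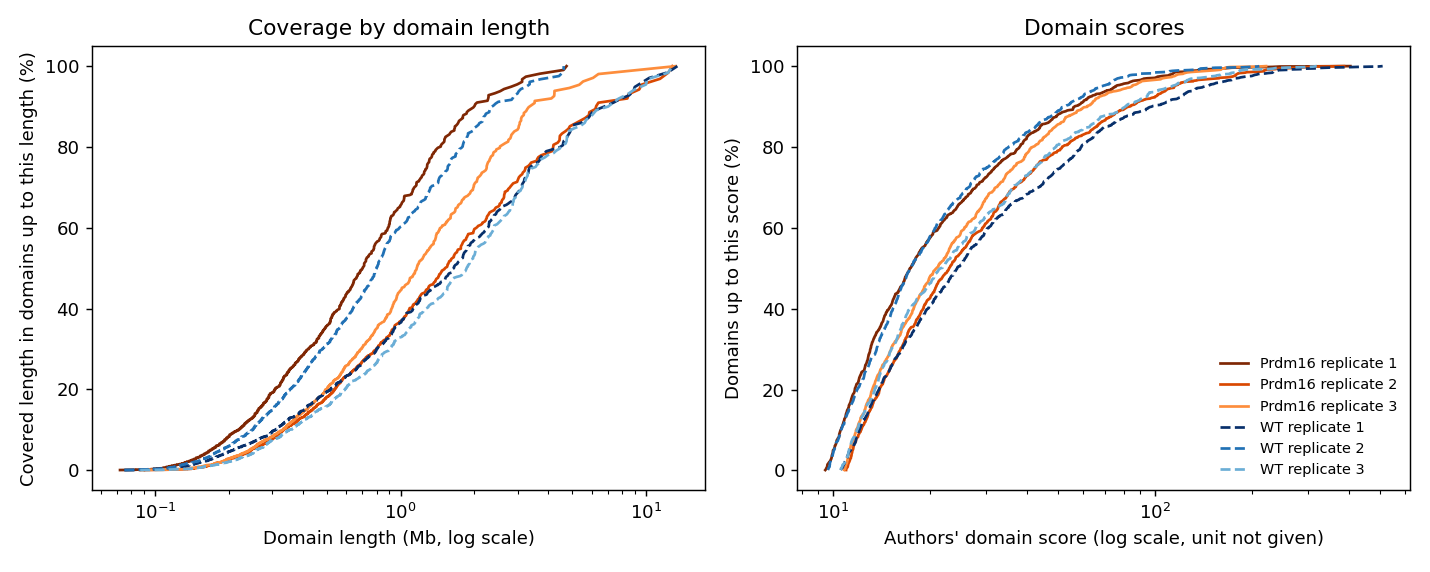
Left, cumulative share of covered length against domain length in Mb on a log scale; right, cumulative share of domains against the authors' score on a log scale, with Prdm16 libraries as solid orange lines and WT libraries as dashed blue lines. The curves of Prdm16 replicate 1 (N50 702 kb) and WT replicate 2 (N50 798 kb) run left of the other 4 over most of both panels.

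To measure edges and fragmentation, consensus domains were built from stretches covered in at least 4 of the 6 libraries, joined across gaps of up to 30 kb and kept from 90 kb on. This gave 963 consensus domains of 636 Mb in all, 527 of them overlapped by a domain in all 6 libraries. Their length was covered to 67.2%, 94.6% and 87.9% in Prdm16 replicates 1, 2 and 3, and to 97.5%, 81.0% and 90.5% in WT replicates 1, 2 and 3.

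Breaks inside consensus domains, which need 4 of 6 libraries covered, were few in both genotypes. In 868 of the 963 consensus domains no library had a break, meaning a gap between its pieces. Breaks numbered 45, 12 and 19 in Prdm16 replicates 1, 2 and 3, and 16, 39 and 17 in WT replicates 1, 2 and 3. Per consensus domain that was 0.026 ± 0.018 in Prdm16 and 0.025 ± 0.014 in WT (SD, n = 3 each; exact permutation p = 0.8). The difference of 0.0014 turned to -0.0073 without Prdm16 replicate 1, and without both Prdm16 replicate 1 and WT replicate 2 it was 0.018. For these alternatives the consensus was built anew from the libraries kept, so they rest on other domains than the 963. Prdm16 replicate 1 and WT replicate 2 again had the most breaks.

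The longest consensus domain shows this. It lies at chr4:65631001-78357000 and holds Tlr4, an innate immune receptor for bacterial lipopolysaccharide, Astn2, Brinp1, Tle1, Kdm4c, a histone H3K9 demethylase, and Ptprd, a receptor tyrosine phosphatase of synapses. It was 1 piece in Prdm16 replicates 2 and 3 and in WT replicates 1 and 3. It was in 7 pieces covering 37.9% of it in Prdm16 replicate 1 and in 6 pieces covering 65.5% in WT replicate 2. The next, chr14:3009001-7746000, is a stretch without a named protein-coding gene in the annotation used. It was covered to 100%, 43.2% and 80.6% in Prdm16 replicates 1, 2 and 3, and to 100%, 97.6% and 100% in WT replicates 1, 2 and 3, so here Prdm16 replicate 1 lay with the WT libraries. The third longest, chr18:25662001-30261000, holds Celf4, an RNA-binding protein of neurons, and was 1 piece in all 6 libraries, covered to at least 92.1%.

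Looked at the other way, domains of at least 1 Mb in 1 library were followed into the others. Of the 226 such domains of WT replicate 1, 51.4%, 81.3% and 68.0% of the length, on average, was covered in Prdm16 replicates 1, 2 and 3, and 61.7% and 88.8% in WT replicates 2 and 3. They were in 2 or more pieces in 29.2%, 23.9% and 30.5% of cases in Prdm16 replicates 1, 2 and 3, and in 29.6% and 19.03% in WT replicates 2 and 3. The 213 domains of at least 1 Mb in Prdm16 replicate 2 were covered to 89.5%, 64.5% and 85.4% in WT replicates 1, 2 and 3, and to 51.5% and 81.7% in Prdm16 replicates 1 and 3. In both cases Prdm16 replicate 1 and WT replicate 2 covered the least of them.

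In every library the median edge lay within 3 kb, the step of the deposited edges, of the consensus. The consensus was built from these same libraries, so a median near 0 follows in part from its making. It does not show that the edges agree. Shifts were measured from the 1926 consensus boundaries to the library's edge, positive where the library's domain reached further outward. An edge could be placed at 1574, 1798 and 1636 boundaries in Prdm16 replicates 1, 2 and 3, and at 1884, 1704 and 1666 in WT replicates 1, 2 and 3, and the shares given here are of those boundaries. The median shift was 0, 3 and 0 kb in Prdm16 replicates 1, 2 and 3, and 3, 0 and 0 kb in WT replicates 1, 2 and 3 (exact permutation p = 1). Within 15 kb of the consensus lay 64.4%, 54.8% and 56.2% of the boundaries in the Prdm16 libraries, and 59.6%, 69.2% and 53.4% in the WT libraries. Outward shifts of more than 15 kb were found at 18.3%, 37.9% and 28.5% in the Prdm16 libraries, and at 36.1%, 14.8% and 33.6% in the WT libraries. Inward shifts of more than 15 kb were found at 17.3%, 7.29% and 15.2% in the Prdm16 libraries, and at 4.25%, 16.0% and 13.0% in the WT libraries.

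**Figure D5:**
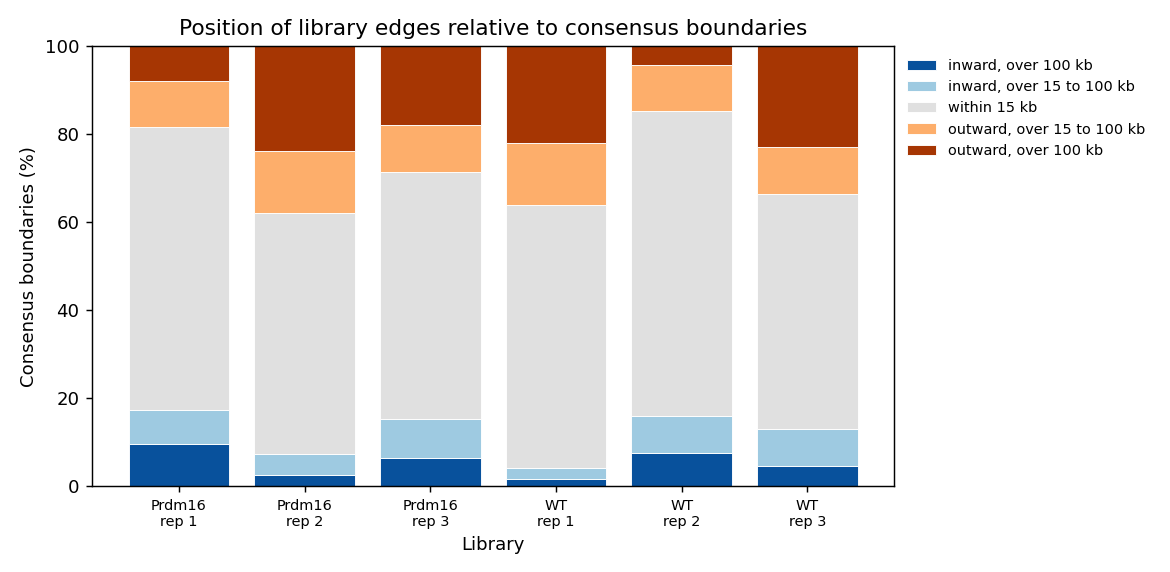
Percentage, among the consensus boundaries with an edge in that library, whose edge lies inward, within 15 kb or outward of the consensus, per library. Outward shifts of more than 15 kb make up 18.3% in Prdm16 replicate 1 and 14.8% in WT replicate 2, against 28.5% to 37.9% in the other 4 libraries.

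Positions were present in all 6 libraries for 1054 boundaries. At 52 of them (4.93%) all Prdm16 edges lay outward of all WT edges, and at 32 (3.04%) all lay inward. Only 186 boundaries had all 6 edges within a range of 15 kb, and the median range was 118.5 kb over 6 libraries, 54.0 kb over the 3 Prdm16 libraries and 39.0 kb over the 3 WT libraries. The boundaries named here had the widest gaps between the genotype medians and are a description with no test. A shift is taken from domains that overlap the consensus domain, so a library can have other domains beyond its edge.

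At chr14:29448001 the left boundary of a domain lay 912, 897 and 912 kb outward in Prdm16 replicates 1, 2 and 3, and at 0, -9 and -3 kb in WT replicates 1, 2 and 3. The stretch between holds Cacna2d3, an auxiliary subunit of voltage-gated calcium channels, and Lrtm1. All 3 Prdm16 edges fell within 15 kb of each other and so did the 3 WT edges. Within that stretch, only the 375 kb at chr14:29073001-29448000 were covered in all 3 Prdm16 libraries and in no WT library. The 100 kb on both sides of those 375 kb were covered to 50%, 95.5% and 97% in WT replicates 1, 2 and 3. In WT replicates 2 and 3 those 375 kb were thus a gap with domain length on both sides. At chr3:149139001, with Adgrl2, a latrophilin adhesion receptor, in the stretch between, the edge lay 135, 2139 and 2037 kb outward in the Prdm16 libraries, and at -120, 0 and -189 kb in the WT libraries. At chr11:18159001, with Etaa1, an activator of the replication stress kinase Atr, in the stretch between, it lay 3, 873 and 873 kb outward in the Prdm16 libraries, and at -6, -9 and 0 kb in the WT libraries. In both, Prdm16 replicate 1 was the Prdm16 library nearest to the WT edges.

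The widest inward shifts were at chr11:93048001, chr15:69738000 and chr16:48321001. At chr11:93048001, with Kif2b and Car10 in the stretch between, the edge lay at -198, -180 and 0 kb in the Prdm16 libraries, and at 2346, 57.0 and 2340 kb in the WT libraries. At chr15:69738000, with Kcnk9, a potassium channel, and Trappc9 in the stretch between, it lay at -90.0, -18 and 0 kb in the Prdm16 libraries, and at 3012, 177 and 2373 kb in the WT libraries. At chr16:48321001, with Dppa2 and Dppa4, genes of the early embryo, in the stretch between, it lay at -63.0, -3 and 0 kb in the Prdm16 libraries, and at 1821, 30 and 2211 kb in the WT libraries. In all 3, WT replicate 2 was the WT library nearest to the Prdm16 edges.

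Stretches covered in all libraries of a genotype and in none of the other were short. There were 76 such regions in Prdm16, with a median of 24 kb, and 70 in WT, with a median of 18 kb. Within 30 kb of a domain of the other genotype lay 88.2% of the 76 and 92.9% of the 70, which made up 65.7% and 68.3% of their length. The longest in Prdm16 was chr18:8724001-9207000, of 483 kb and without a named protein-coding gene, followed by chr14:29073001-29448000 inside Cacna2d3 and chr5:141246001-141606000 inside Sdk1, a synaptic adhesion protein. The longest in WT was chr9:18393001-18777000, of 384 kb, with Naalad2, Mbd3l2, Mbd3l1, Ubtfl1, Zfp558 and Muc16. It was followed by chr7:120129001-120420000, with Zp2, a protein of the egg coat, Anks4b, Crym, Abca14, Abca15 and Abca16, and by chr8:38712001-39003000 without a named protein-coding gene. Coverage in the 100 kb on both sides of the chr9 region was 0% in all 3 Prdm16 libraries and 13.5%, 0% and 9% in WT replicates 1, 2 and 3. The 1 Mb window that holds it, chr9:18000001-19000000, was covered to 0% in each Prdm16 library. There it was covered to 68.4%, 38.4% and 40.2% in WT replicates 1, 2 and 3, so WT replicate 1 had further domain length nearby.

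In windows of 1 Mb, 1 of 1811 windows was called. The window chr14:29000001-30000000, which holds the Cacna2d3 stretch above, was covered to 92.5%, 93.7% and 92.2% in Prdm16 replicates 1, 2 and 3, and to 47.7%, 54.1% and 52.9% in WT replicates 1, 2 and 3 (limma, two-sided, Benjamini-Hochberg adjusted p = 0.049). Windows called higher in Prdm16 were thus 0.0552% of those tested and windows called lower 0.0%, and 40 higher and 32 lower windows had an unadjusted p under 0.05. All 3 Prdm16 values lay above all WT values in 63 windows (3.48%) and below in 57 (3.15%). No window was called at equal covered length, with coverage taken relative to the library's total, with the replicate number as a block, or without Prdm16 replicate 3, WT replicate 1 or WT replicate 3. There were 51 calls without Prdm16 replicate 1, 52 without WT replicate 2, 3 without Prdm16 replicate 2, and 122 without the pair that stood apart (58 higher and 64 lower).

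The domains were gene-poor. The 1617, 1821 and 1408 genes inside domains in Prdm16 replicates 1, 2 and 3 and the 2500, 1688 and 1866 in WT replicates 1, 2 and 3 were 6.81% to 12.1% of all. Gene density was 3.22, 2.28 and 2.08 genes per Mb inside domains in the Prdm16 libraries, and 2.83, 3.01 and 2.41 in the WT libraries. Outside domains it was 9.72 to 11.4 per Mb in the Prdm16 libraries and 9.99 to 11.5 in the WT libraries. In all, 635 genes (3.07%) were inside in all 6 libraries and 17548 (84.9%) in none.

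RNA of these genes was low in FAPs grown in the same way. In 5 RNA libraries, 2 labelled Prdm16 and 3 labelled WT, 67.0% of the 16801 matched genes inside domains in no library had a mean of at least 1 CPM (counts scaled to library size), against 9.78% of the 603 genes inside in all 6 domain libraries. This is a description across genes within these libraries. Prdm16 itself had 91 and 86 counts in the libraries labelled Prdm16 and 171, 94 and 59 in those labelled WT, so its count did not set the labels apart, and the RNA labels may not match the grouping behind the authors' own deposited comparison. The RNA fold changes below follow the labels as given, and their signs hold only as far as those labels do.

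The 20 FAP identity genes, among them the receptor Pdgfra, the surface antigen Ly6a (Sca-1), Dpp4 and the collagens Col1a1 and Col3a1, were inside domains in no library, as were 84.9% of all genes. The same held for the 19 white fat genes, including Pparg, Cebpa and Fabp4, for the 20 autosomal fibrosis and matrix genes, and for the Hox, lamina and housekeeping lists. Pdgfra had a partial value, 8.33%, 27.1% and 0% of its body in Prdm16 replicates 1, 2 and 3 and 0% in each WT library. Markers of macrophages, endothelium and Schwann cells were inside domains in no library either, and of the 6 pericyte markers, Abcc9 and Kcnj8 were covered in some libraries of both genotypes.

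Of the 35 sarcomere genes, 5 were inside in all 6 libraries, as were 3.07% of all genes. They are the adult and perinatal fast myosin heavy chains Myh1, Myh2, Myh4 and Myh8, which lie side by side on chromosome 11, and the cardiac actin Actc1. All were covered to 100% in every library, while the neighbouring embryonic Myh3 was at 0% in every library. Ttn, the giant spring protein of the sarcomere, was covered to 75%, 71.8% and 52.5% in Prdm16 replicates 1, 2 and 3, and to 73.9%, 71.8% and 0% in WT replicates 1, 2 and 3. Actn2, the Z-disc alpha-actinin, was inside only in Prdm16 replicate 1 (98.6%). Of the 17 myogenic regulators only Eya1, a transcription cofactor, was inside, in all 6 libraries, and Myod1, Myf5, Pax7 and Myog were at 0% throughout.

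Among the 15 brown and beige fat genes, Ppargc1a, a coactivator of mitochondrial genes, was covered to between 91.8% and 99.1% in all 6 libraries. Dio2, the enzyme that activates thyroid hormone, was covered to 0%, 100% and 100% in Prdm16 replicates 1, 2 and 3, and to 100%, 100% and 0% in WT replicates 1, 2 and 3. Ucp1, the uncoupling protein of brown fat, Cidea and the Prdm16 gene were at 0% in every library. Among the 22 genes of H3K9 methylation only Kdm4c was inside, in Prdm16 replicates 2 and 3 and in WT replicates 1 and 3. Cdyl, a chromodomain protein that binds methylated H3K9, was covered to 30.1%, 37.0% and 20.4% in the Prdm16 libraries and to 0% in each WT library, without overlap. Ehmt1 and Ehmt2 were outside domains throughout.

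Of 30 listed genes of synapses and neuronal adhesion, 14, 26 and 20 were inside in Prdm16 replicates 1, 2 and 3, and 27, 17 and 25 in WT replicates 1, 2 and 3, where 6.81% to 12.1% of all genes were inside. In all 6 libraries 12 of the 30 were inside. Grin2a and Grin2b, subunits of the NMDA glutamate receptor, and the adhesion genes Ntm and Opcml were covered to 100% in every library. Robo1, a receptor of axon guidance, was covered to 1.27%, 100% and 55.9% in Prdm16 replicates 1, 2 and 3, and to 100%, 15.7% and 100% in WT replicates 1, 2 and 3, so Prdm16 replicate 1 and WT replicate 2 were the low libraries. Other members differed otherwise. Gabra2, a GABA receptor subunit, was covered to 0% in each Prdm16 library and to 100%, 0% and 100% in WT replicates 1, 2 and 3. Csmd1, a membrane protein with complement control domains, had 36.7%, 7.42% and 0% in the Prdm16 libraries, and 100%, 44.8% and 87.2% in the WT libraries, without overlap. Snap25, also on this list, went the other way, with 100% in each Prdm16 library and 0% in each WT library. The list was chosen with earlier results of these data known.

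Gene families in tandem clusters varied by library. Of 1104 olfactory receptor genes, 147, 199 and 94 were inside in Prdm16 replicates 1, 2 and 3, and 317, 186 and 246 in WT replicates 1, 2 and 3. Of 354 vomeronasal receptor genes, 36, 23 and 24 were inside in the Prdm16 libraries, and 91, 22 and 47 in the WT libraries. Of 112 keratin and keratin-associated genes, 43, 55 and 24 were inside in the Prdm16 libraries, and 62, 59 and 43 in the WT libraries. In all 3 families the ranges overlapped. Of 42 beta-defensin genes, which encode small antimicrobial peptides, 4, 0 and 0 were inside in the Prdm16 libraries, and 12, 5 and 21 in the WT libraries, the only one of the 24 lists whose counts did not overlap. Members of a cluster share their domains and are not separate observations, and over all genes the inside share was 7.82%, 8.81% and 6.81% in the Prdm16 libraries, and 12.1%, 8.17% and 9.03% in the WT libraries.

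Among the 7 genes inside in Prdm16 libraries only, Snap25, a SNARE protein of synaptic vesicle fusion, was covered to 100% in each Prdm16 library and to 0% in each WT library. Khdrbs3, an RNA-binding splicing regulator, was covered to 100% in each Prdm16 library and to 3.45% in each WT library. F13a1, the A subunit of the coagulation factor that cross-links fibrin, was covered to 100%, 76.6% and 66.8% in Prdm16 replicates 1, 2 and 3, and to 0% in each WT library. Ankef1 on chromosome 2 was covered to at least 95.8% in the Prdm16 libraries and to 0% in the WT libraries. Erc2, a scaffold of the presynaptic release site, was close to the cut, with 51.5%, 50.1% and 50.1% in the Prdm16 libraries, and 36.4%, 35.0% and 0% in the WT libraries.

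Among the 31, Muc16, the lipid transporter relatives Abca14 and Abca15, the zinc-finger gene Zfp558, Mbd3l2 and Cd48, a surface protein of leukocytes, were covered to 0% in each Prdm16 library and to 100% in each WT library. Dcdc5 was covered to 0% in each Prdm16 library and to 100%, 71.8% and 100% in WT replicates 1, 2 and 3. Klhl32, a kelch protein, had 0%, 0% and 35.0% in the Prdm16 libraries, and 73.8%, 53.8% and 100% in the WT libraries. Naip1, a sensor of bacterial proteins in the inflammasome, lay near the cut, with 45.7%, 0% and 0% in the Prdm16 libraries, and 58.7%, 58.7% and 65.2% in the WT libraries. The 31 also held 8 olfactory receptor genes and 1 beta-defensin gene.

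These counts need agreement of all libraries of a genotype, so leaving out a library can only keep or raise them. Without Prdm16 replicate 1 there were 57 genes inside in Prdm16 only and 96 in WT only, and without WT replicate 2 there were 20 and 174. Without Prdm16 replicate 2 there were 16 and 92, without WT replicate 1 there were 26 and 35, without WT replicate 3 there were 7 and 65, and without the pair that stood apart 78 and 291. The number inside in WT only was the higher of the 2 each time. Over all genes, body coverage was higher in every Prdm16 library than in every WT library for 25 genes (0.121%) and lower for 48 (0.232%).

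None of the separated genes passed the test on RNA. Of the 38, 8 passed edgeR's filter on low counts, and 0 were called by edgeR or by DESeq2 or had an unadjusted p under 0.05 in edgeR. Over all 15240 genes tested, 0 (0.0%) had an adjusted p under 0.05 and 378 an unadjusted p under 0.05. Snap25 had 14 and 13 counts in the libraries labelled Prdm16 and 12, 6 and 16 in those labelled WT, a log2 fold change of 0.72 (edgeR's quasi-likelihood test, Benjamini-Hochberg adjusted p = 0.9996). Khdrbs3 had 39 and 26 counts in the libraries labelled Prdm16 and 43, 23 and 46 in those labelled WT, a log2 fold change of 0.22 (edgeR, adjusted p = 0.9996). Zfp558 had 29 and 19 counts in the libraries labelled Prdm16 and 28, 23 and 27 in those labelled WT, a log2 fold change of 0.26 (edgeR, adjusted p = 0.9996). Cd48 and Zp2 had 0 counts in all 5 libraries, a level not detectable at this depth.

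LaminB1 marks the nuclear lamina and was mapped in 1 library per genotype, so these overlaps have no replicates on the LaminB1 side. Of the H3K9me2 length, 49.8%, 39.7% and 35.1% in Prdm16 replicates 1, 2 and 3, and 51.0%, 46.8% and 51.5% in WT replicates 1, 2 and 3, lay inside WT LaminB1 domains (exact permutation p = 0.2). Inside Prdm16 LaminB1 domains lay 22.7%, 12.6% and 12.7% in the Prdm16 libraries, and 19.8%, 19.1% and 18.8% in the WT libraries (exact permutation p = 0.4). The Prdm16 LaminB1 domains cover less of the autosomes than the WT LaminB1 domains. The lower shares inside them therefore cannot be set against the shares inside WT LaminB1 domains. The groups overlapped for both LaminB1 lists. Prdm16 replicate 1 lay inside the WT range for WT LaminB1 domains and above every WT library for Prdm16 LaminB1 domains.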

How the data were processed

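H3K9me2 and LaminB1 domain lists and an RNA count table were used; input samples were not used here. Each deposited list gives chromosome, start, end and the authors' score; neither the caller nor the making of the score is stated in the labels. The authors' deposited table held raw counts per gene, with 8448654 and 5839587 counts in the libraries labelled Prdm16 and 10657791, 7053114 and 10284864 in those labelled WT. Per the submitters' processing notes, tools included DESeq2 1.20, featureCounts, STAR 2.7 and Bowtie 1.2.2, and builds GRCm38, mm10 and dm6, with no role for each. RefSeq gene positions were those of GRCm38.p6, and the autosomal length, 2461 Mb, runs to the last gene or domain end of each chromosome. No domain list gave a depth.

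Domains were laid on bins of 1 kb in Python 3.11.15. Single values were compared by exact two-sided permutation. Windows of 1 Mb were tested with limma 3.58.1 on covered fractions. It offset window variances close to 0, as where replicates had equal coverage. RNA was tested with edgeR 4.0.16 (quasi-likelihood, default filter) and DESeq2 1.42.0 in R 4.3.3, adjusted by Benjamini-Hochberg at 0.05. The limma and edgeR tests and the boundary and break measures were also run on simulated data, with outcomes not given here. The permutation tests and DESeq2 were not. The simulated windows had normal scatter, which covered fractions need not have. Results with other consensus rules, scores, lengths and libraries are in the closing section. Genes named were the longest separated genes without systematic names, up to 6 inside in Prdm16 only and 10 in WT only, plus list members; regions, boundaries and domains named were the 3 longest or widest of each kind. The members and lists were chosen with earlier results of these data known.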

Additional observations from a re-analysis of the deposited data

How the results depend on the processing

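Leaving out 1 library at a time gave differences (Prdm16 minus WT) from -6.92 to -0.06 points in autosomal coverage, -112 to 27.0 domains, -13.0 to 66.5 kb in median length, -626 to -91.5 kb in N50, -14.2 to 2.53 points in the share of coverage in domains of at least 1 Mb, -2.58 to 0.88 in median score, -0.0073 to 0.013 breaks per consensus domain and -2.50 to 4.00 kb in median boundary shift. Breaks and boundary shifts were then measured on a consensus built anew from the libraries kept. The same omissions gave 0 to 52 called windows, 53 to 194 separated genes and 0 called RNAs. At equal covered length, coverage differed by 0.0065 points by construction, the number of domains by 164 and the median length by -414 kb, each with the sign turned; N50 differed by -681 kb, the share in domains of at least 1 Mb by -10.9 points, the median score by -22.1 and breaks by 0.016. With a consensus of at least 5 libraries, breaks differed by 0.0074 (0.014 in Prdm16 and 0.0066 in WT, exact permutation p = 0.2) and the median boundary shift by -1 kb; with at least 3, by 0.00032 and 0 kb. The mean boundary shift differed by -92.9 kb where the median differed by 0. Called windows numbered 1 in the main analysis, 8 with domains under each library's lower score quartile left out, 36 of 5345 with windows of 250 kb, and 0 at equal covered length, relative to library totals or with the replicate block. They numbered 122, and separated genes 369, without Prdm16 replicate 1 and WT replicate 2, an alternative chosen after seeing the data. Separated genes numbered 38 by body, 26 with 9 in 10 of the body, and 23 by transcription start. Counts of separated genes can only stay or rise when a library is left out. The other changes have causes that were not tested.

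Same-numbered libraries had correlations of -0.28, -0.60 and 0.09 in their deviations from the genotype means. Across genotypes, libraries of different number had -0.46 to 0.50, the highest for Prdm16 replicate 1 with WT replicate 2. With 3 libraries per genotype these values cannot settle whether the numbers pair the libraries, and the labels do not say. With the numbers as a replicate block the difference in coverage stayed -3.30 points (exact sign-flip p = 0.75). No measure passed 0.05 under any alternative; 3 libraries per genotype could not.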

Other observations

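Chromosome X was not among the autosomes compared. Domains covered 74.5 Mb, 40.7 Mb and 12.8 Mb of X in Prdm16 replicates 1, 2 and 3, and 134 Mb, 73.0 Mb and 112 Mb in WT replicates 1, 2 and 3 (exact two-sided permutation test, p = 0.2, where the smallest possible is 0.1). The order of the libraries on X was not that on the autosomes: Prdm16 replicate 3, covering 27.5% of the autosomes, above Prdm16 replicate 1 and WT replicate 2, was lowest on X with 7.48% of its length. With X included, the difference in coverage was -5.50 points, against -3.30 points on the autosomes. The sex of the mice is not in the labels used here.

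The sarcomere gene Myom2, a component of the M-band, was covered to 100%, 96.1% and 0% in Prdm16 replicates 1, 2 and 3, and to 76.6%, 76.6% and 100% in WT replicates 1, 2 and 3. Of 62 serpin genes, 29, 27 and 13 were inside domains in the Prdm16 libraries, and 31, 30 and 18 in the WT libraries. In both, Prdm16 replicate 3 had the lowest value and the genotypes overlapped.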
